A study of Mus musculus with 6 samples.

Results

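The genes described here encode the matrix metalloproteinases (MMPs), the ADAM and ADAMTS proteases, the ADAMTS-like proteins and the tissue inhibitors of metalloproteinases (TIMPs) of the mouse. Members were the genes of the deposited count table whose symbol begins with Mmp, Adam, Adamts or Adamtsl followed by a number, or is Timp1 to Timp4, and whose read counts in the 6 libraries sum to 30 or more. The table lists 33017 genes, of which 84 carry such a symbol and 62 reach that count, and 59 of the 62 passed the filter on low counts and were tested. The libraries were made from poly-A selected RNA of frozen mouse small intestine, 3 labelled control and 3 labelled model. The series title names simulated microgravity, radiation and a preparation called CB001, and its design text speaks of effects of a dual factor in 2 groups. The labels give no strain, age, sex, dose or duration for either group, and none marks a library as having received CB001. No label ties a library to an animal, so p-values below rest on differences among libraries that may be partly or wholly technical.

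MMPs are zinc proteases, secreted or anchored at the cell surface, that cut collagens, proteoglycans and other matrix proteins, and TIMPs block them by binding their active site. ADAMs are membrane proteins, many of which release the outer part of growth factors, cytokines and receptors from the cell surface, and ADAMTS proteases are secreted relatives that trim procollagen, proteoglycans and blood or matrix proteins. In the small intestine Mmp7, also called matrilysin, is made by Paneth cells and activates their defensins, and Adam10 acts in Notch signalling in the crypt. Many other members are made by fibroblasts, muscle and immune cells.

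A cluster of secreted MMP genes on chromosome 9 is known for short promoters with a TATA box and a binding sequence of the transcription factor AP-1. The stretches of 120 bases before the RefSeq start are shown for its 5 tested members, since their levels are described together below. They are written 5′ to 3′ along the gene from RefSeq promoters of build GRCm38.p6, and capitals mark TGANTCA and TATAAA.
Mmp3 (chr9:7445702-7445821, + strand): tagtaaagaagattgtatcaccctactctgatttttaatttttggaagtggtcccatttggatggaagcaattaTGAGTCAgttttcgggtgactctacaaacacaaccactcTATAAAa
Mmp7 (chr9:7691970-7692089, + strand): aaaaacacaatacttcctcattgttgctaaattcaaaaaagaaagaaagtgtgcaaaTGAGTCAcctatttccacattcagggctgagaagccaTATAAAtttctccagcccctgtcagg
Mmp10 (chr9:7502222-7502341, + strand): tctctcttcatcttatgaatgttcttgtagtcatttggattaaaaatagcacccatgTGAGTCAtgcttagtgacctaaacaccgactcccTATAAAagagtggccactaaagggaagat
Mmp12 (chr9:7347254-7347373, + strand): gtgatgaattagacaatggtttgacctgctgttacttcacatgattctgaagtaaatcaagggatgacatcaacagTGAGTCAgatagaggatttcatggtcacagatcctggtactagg
Mmp13 (chr9:7272394-7272513, + strand): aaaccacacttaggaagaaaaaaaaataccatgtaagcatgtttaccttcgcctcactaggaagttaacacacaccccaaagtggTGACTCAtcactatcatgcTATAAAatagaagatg
TGANTCA contains the AP-1 sequence and reads the same on both strands, TATAAA was searched on the strand of the gene only, and the motifs share no overlap in these stretches. In the 300 bases from 250 before to 50 after the start, 38 members had 43 promoters in the table. Of the 17 promoters of MMP members, 6 (35.3%) held both motifs, against 0 of the 26 promoters of the ADAM, ADAMTS, ADAMTS-like and TIMP members and 0.995% of all 32851 promoters. The 6 belong to Mmp3, Mmp7, Mmp10, Mmp12, Mmp13 and Mmp20, all on chromosome 9, and Mmp12 has its TATAAA just after the start, outside the stretch shown. Mmp7 and Mmp12 each have another RefSeq promoter with neither motif, and the stretch shown was taken from the promoter with both. Among chromosome 9 MMP symbols below the count minimum, Mmp1a and Mmp1b held both motifs and Mmp8 and Mmp27 neither. A match of letters is a description of the sequence and was not tested as a binding site.

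The libraries held 35007515 to 45285564 counts. Members took 729 to 1184 CPM (read counts scaled to a common library total, here the raw one) in the control libraries and 578 to 894 CPM in the model libraries. Levels below are CPM of the total scaled by TMM, a factor that evens out differences in composition, and always follow the order of the library numbers 1, 2 and 3. Summed markers of intestinal epithelium stood at 7427 to 8809 CPM in the control and 7065 to 9864 CPM in the model libraries. Fabp2, a defining gene of enterocytes, was listed at 0, and all of its exonic bases lie inside other gene bodies. Libraries differed in markers of other cells. Pancreatic acinar markers summed to 5596 CPM in model 3 and to at most 11.2 CPM in the other 5 libraries, and B cell markers to 253 CPM in control 3, 164 CPM in model 3 with no other library above 41.1 CPM. In whole tissue, fewer cells of a type and less RNA per cell cannot be told apart.

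The inhibitors could be read for Timp2 alone. Timp1, Timp3 and Timp4 were listed at 0 in all 6 libraries, and in the mouse annotation (GENCODE M21) each lies wholly inside a synapsin gene, Timp1 in Syn1, Timp3 in Syn3 and Timp4 in Syn2. The host genes had counts in each library, with 72 to 150 for Syn1, 80 to 206 for Syn2 and 59 to 229 for Syn3. Adam1b and Adam4, likewise wholly inside other genes, were also listed at 0. Over the whole table, 663 of 677 protein-coding genes (97.9%) whose exonic bases all lie inside the bodies of other genes were listed at 0, against 1527 of 14744 (10.4%) of those with no overlap. A 0 for these genes was therefore not read as absence of the transcript. The step that set them to 0 was not tested.

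**Figure D1:**
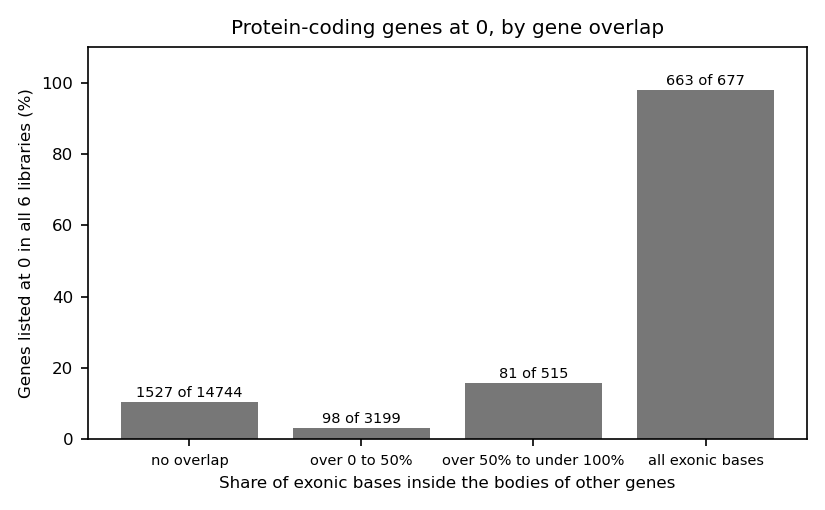
Percentage of protein-coding genes listed at 0 in all 6 libraries (vertical axis), by the share of a gene's exonic bases that lies inside the bodies of other genes in GENCODE M21 (horizontal axis), with the number at 0 of the number of genes above each bar. The bar for genes covered in full stands at 97.9% and includes Timp1, Timp3 and Timp4, and the bar for genes with no overlap at 10.4%.

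The 22 symbols below the count minimum were 16 listed at 0 and 6 with few counts. Just under it were Adam18 and Mmp27 with 25 counts each and Adam29 with 24, and just above it Adam3 with 32, Mmp21 with 36 and Adam6b with 57. Mmp8, the collagenase of neutrophils, had 13 counts over all libraries and Mmp1b 2. Beside the TIMPs, the symbols at 0 were Mmp1a, Mmp19 and 11 ADAMs of the reproductive tract, among them Adam1a and Adam1b. Mmp19 has 22.3% and Adam1a 88.6% of its exonic bases inside other genes. Of the 62 members, 49 have no such overlap and 7 have more than 10%, among them Mmp7 with 49.5%, shared with AV064505, so that its counts may miss reads.

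Scaled by exon length, Adam10 had the highest mean level over the 6 libraries, 35.2 CPM per kb with a range of 26.1 to 47.3. Mmp7 came next at 20.9 CPM per kb, but its libraries ran from 0.876 to 83.5, wider than any gap in the order. Adamtsl5 (14.3), Mmp14 (13.0), Mmp10 (11.9), Timp2 (11.7) and Adam9 (11.6 CPM per kb) followed with ranges that overlap one another, as do those of Mmp15 (9.44), Mmp2 (8.65) and Adam17 (7.76). Unscaled, 5 members averaged 50 CPM or more, 12 between 10 and 50, 31 between 1 and 10, and 14 under 1.

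In the comparison of model with control, no member passed edgeR's quasi-likelihood test at an adjusted p under 0.05, and neither did any of the 15904 genes tested (0%). At an unadjusted p under 0.05 stood 4 of 59 members, with Mmp16, Adam12 and Adamtsl1 lower and Adam2 higher in the model libraries, where 4.81% of all genes stood there. At an adjusted p under 0.05, DESeq2 called 0 members and 0.153% of all genes, and limma-voom called 0 members and 0 genes. At an unadjusted p under 0.05 stood 8 members with DESeq2 and 6 with limma-voom. The share of all genes at that unadjusted threshold was not counted for these tools. The log2 fold change was below 0 for 45 of 59 members (76.3%), against 51.8% of all genes, and its median was -0.37 against -0.02, with members ranging from -2.01 to 1.88. Genes counted as lower or higher in the model libraries are those with a log2 fold change below or above 0, and their groups may overlap. The model libraries lay wholly below the control libraries for 8 members, Adam12, Adam33, Adamts5, Adamts8, Adamts17, Adamts18, Adamtsl1 and Mmp17, which is 13.6% where 6.33% of all genes did so. They lay wholly above for Adam2, Adam6b and Mmp24, which is 5.08% where 4.73% of all genes did so. Scaled by library size alone, 72.0% of all genes and 79.7% of members had lower values in the model libraries, and the medians were -0.21 and -0.53. The members' median was -0.16 without control 3, -0.20 without model 1 and -0.62 without model 2. Without both control 2 and model 1, the libraries with the lowest fibroblast markers, it was -0.27, and without both control 3 and model 3, which had the most B cell markers, -0.24.

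**Figure D2:**
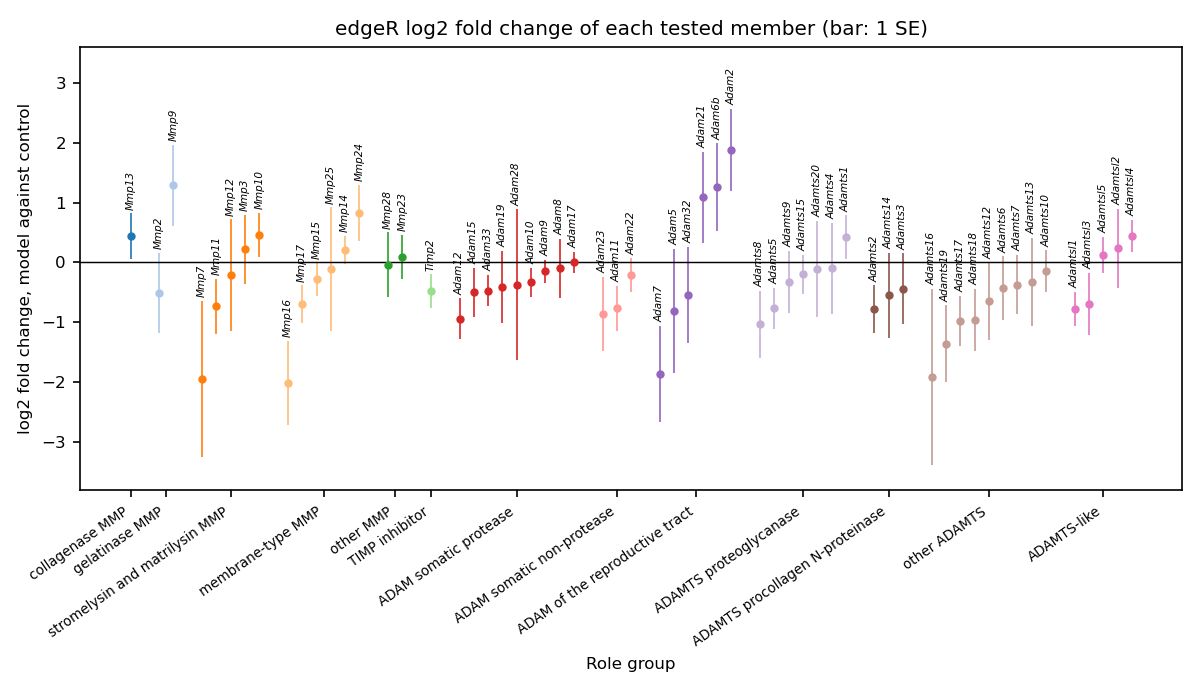
edgeR log2 fold change of model against control (vertical axis, with 1 SE as bars) for each of the 59 tested members, grouped by role (horizontal axis). The ADAM somatic proteases and the ADAMTS groups lie mostly below 0, whereas the MMPs lie on both sides of 0, and 0 members passed the adjusted threshold.

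The 16 tested MMPs were divided in direction, with 7 higher and 9 lower in the model libraries and a median log2 fold change of -0.08. A single library turned the sign of that median, which was 0.28 with 5 lower without control 1, 0.18 with 7 lower without model 3 and -0.44 with 10 lower without model 2. Mmp2 and Mmp9 are the gelatinases, which cut denatured collagen and basement membrane collagen. Mmp2, made mainly by fibroblasts, had 47.1, 8.26 and 47.3 CPM in the control and 10.3, 33.1 and 28.9 CPM in the model libraries. Mmp9, typical of neutrophils and macrophages, had 23.9, 3.13 and 7.12 CPM in the control and 19.1, 37.5 and 26.8 CPM in the model libraries. Both sets of groups overlap: Mmp2 was low in control 2 and model 1, and Mmp9 was low in controls 2 and 3. The log2 fold change was -0.51 (SE 0.67) for Mmp2 and 1.29 (SE 0.68, unadjusted p = 0.0977) for Mmp9 by edgeR. With each library left out in turn, the value for Mmp9 ran from 0.86 without control 2 (unadjusted p = 0.154) to 2.44 without control 1 (unadjusted p = 0.00208, adjusted p = 0.928), the 1 of 6 fits under 0.05. The value for Mmp2 ran from -0.95 to -0.14. Neutrophil markers were near 0, with sums of 1.79 to 5.74 CPM in the control and 2.18 to 5.40 CPM in the model libraries. Most of each sum was Csf3r, the 1 of 7 genes tested, and S100a8 and S100a9 had 6 counts each over all libraries. Itgam, a gene of myeloid cells outside the marker list, was listed at 0 although no other gene overlaps its exons. Low counts here were therefore not read as absence of neutrophils. Macrophage markers summed to 329, 167 and 353 CPM in the control and 266, 291 and 294 CPM in the model libraries, and their part in Mmp9 was not tested.

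**Figure D3:**
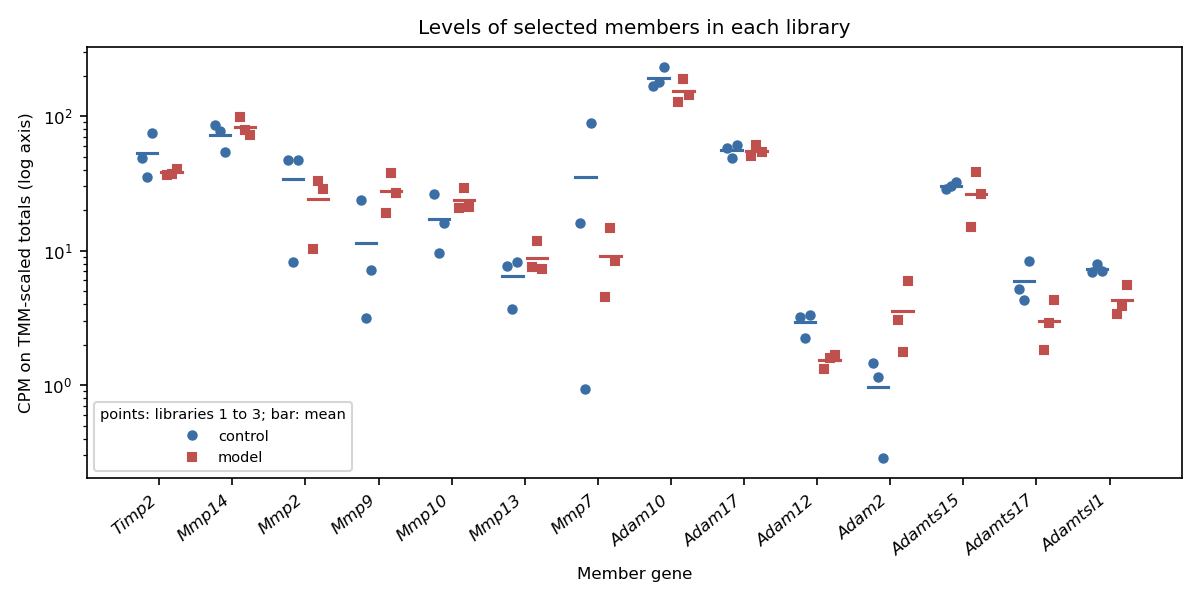
Level of 14 members in each library, in CPM on TMM-scaled totals (vertical log axis), with the control libraries as circles, the model libraries as squares and the group mean as a bar. Adam12, Adam2, Adamts17 and Adamtsl1 have groups that do not overlap, and Mmp7 spans 0.935 to 89.2 CPM within the control libraries.

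Among the collagenase, stromelysins and matrilysin, the spread within groups exceeded the difference between them. Mmp13, the main collagenase of the mouse, had 7.63, 3.66 and 8.26 CPM in the control and 7.51, 11.7 and 7.32 CPM in the model libraries (log2 fold change 0.44, SE 0.38). Mmp7 had 16.1, 0.935 and 89.2 CPM in the control and 4.53, 14.6 and 8.29 CPM in the model libraries. The 2 extreme values both fell among the controls, so the groups overlap in full. Its log2 fold change was -1.95 (SE 1.31, unadjusted p = 0.183) by edgeR and 0.11 without control 3. The 5 Paneth markers in the table, defensins and lysozyme among them, summed to 2277, 23.4 and 6666 CPM in the control and 95.7, 883 and 893 CPM in the model libraries, so that control 3 was highest and control 2 lowest in both Mmp7 and these markers. All 5 had log2 fold changes below 0, with overlapping groups and 0 at an unadjusted p under 0.05, and their part in Mmp7 was not tested.

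The 5 tested genes of the chromosome 9 cluster whose promoters are printed above had 3 higher and 2 lower values, with a median log2 fold change of 0.22. Mmp10, a stromelysin, had 26.4, 9.51 and 15.9 CPM in the control and 20.8, 29.2 and 21.2 CPM in the model libraries (log2 fold change 0.46, SE 0.37). Mmp3, another stromelysin, stood at 0.374 to 0.879 CPM in the control and 0.485 to 1.16 CPM in the model libraries. Control 2 was the lowest library for Mmp3, Mmp7, Mmp10 and Mmp13, a pattern picked out after the values were seen, and was the lowest for 25.4% of members and 11.9% of all genes. Mmp12, the elastase of macrophages, was below 1 CPM throughout.

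Of the 6 membrane-type MMPs, which act at the cell surface, 2 had higher and 4 lower values in the model libraries. Mmp14, the activator of proMmp2 and the MMP with the most counts when not scaled by length, had 85.4, 77.0 and 53.7 CPM in the control and 98.1, 79.0 and 72.6 CPM in the model libraries (log2 fold change 0.21, SE 0.23). Mmp16, a membrane protease that can also activate proMmp2, had 1.15, 2.81 and 3.44 CPM in the control and 0.312, 0.318 and 1.20 CPM in the model libraries. The groups touch at control 1 and model 3 only, and the log2 fold change was -2.01 (SE 0.70, unadjusted p = 0.0223, adjusted p = 0.851 by edgeR), the lowest among the members. Mmp17, anchored by a lipid tail, had 5.88, 7.22 and 11.7 CPM in the control and 4.50, 5.06 and 5.64 CPM in the model libraries, groups that do not overlap (log2 fold change -0.70, SE 0.32, unadjusted p = 0.0641). Without control 3, its highest library, the value for Mmp17 was -0.35, and with the other libraries left out in turn it was as low as -0.89. Mmp24 went the other way at a low level, with 0.522 to 1.07 CPM in the control and 1.20 to 1.97 CPM in the model libraries. Smooth muscle markers summed to 1165, 1774 and 1990 CPM in the control and 1167, 877 and 885 CPM in the model libraries. Like Mmp16 and Mmp17, 7 of 7 were lower. By edgeR, 2 stood at an unadjusted p under 0.05, where 4.81% of all genes stood there. The order of libraries differed, since model 1 had the highest marker sum of the model group and the lowest Mmp16 and Mmp17. The part of smooth muscle content in both genes was not tested. Mmp28, made by epithelium, and Mmp23 both stood near 0, Mmp28 at -0.04 (SE 0.54) and Mmp23 at 0.09 (SE 0.37) on the log2 scale.

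Timp2, an inhibitor that also takes part in proMmp2 activation by Mmp14, had 48.7, 35.5 and 74.9 CPM in the control and 36.7, 37.2 and 40.5 CPM in the model libraries. The model libraries lie close together at the low end of the wider control range, and control 2 lies below all of them. Its log2 fold change was -0.48 (SE 0.28, unadjusted p = 0.133) by edgeR. With each library left out in turn, Timp2 ran from -0.68 without control 2 to -0.13 without control 3.

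All 9 somatic ADAM proteases had log2 fold changes below 0, where 51.8% of all genes did. They ran from -0.94 to -0.00, with a median of -0.37, and 0 passed the test. With each library left out in turn, the sign held in 2 of 6 fits for Adam17 and 3 for Adam8. It held in 4 for Adam28, in 5 for Adam19 and in all 6 for the others. Adam10, the main sheddase of Notch receptors and E-cadherin, had 166, 180 and 233 CPM in the control and 128, 187 and 144 CPM in the model libraries, with overlapping groups (log2 fold change -0.33, SE 0.24, unadjusted p = 0.203, and -0.16 without control 3). Adam17, which releases tumour necrosis factor and ligands of the epidermal growth factor receptor, had 57.7, 48.6 and 60.5 CPM in the control and 50.7, 61.1 and 54.4 CPM in the model libraries. Its group means were 55.6 and 55.4 CPM and its log2 fold change was -0.00 (SE 0.18), and 0.03 with DESeq2 and with RLE scaling. Adam12, a protease of mesenchymal cells and muscle, had 3.21, 2.24 and 3.32 CPM in the control and 1.32, 1.59 and 1.68 CPM in the model libraries. These groups do not overlap, and the log2 fold change was -0.94 (SE 0.34, unadjusted p = 0.0276, adjusted p = 0.851 by edgeR), between -1.08 and -0.82 when each library was left out in turn.

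The 3 somatic ADAMs without protease activity, Adam11, Adam22 and Adam23, are neural surface proteins that bind Lgi ligands. Adam11 had 7.11, 3.53 and 7.17 CPM in the control and 2.77, 3.20 and 4.44 CPM in the model libraries (log2 fold change -0.77, SE 0.38). Adam23 had 4.36, 3.63 and 9.93 CPM in the control and 1.56, 2.09 and 6.21 CPM in the model libraries (log2 fold change -0.86, SE 0.62), and its value was -0.27 without control 3 and -1.70 without model 3. Adam22 stood at 5.24 to 7.54 CPM and 4.51 to 6.13 CPM, and the groups of all 3 genes overlap. Markers of enteric neurons and glia summed to 13.7, 18.5 and 18.3 CPM in the control and 19.7, 10.3 and 13.5 CPM in the model libraries.

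Of 21 ADAMs of the reproductive tract, known mainly from sperm and epididymis, 7 were members and 6 were tested, with 3 higher and 3 lower. Adam2, a sperm surface protein, had 1.46, 1.15 and 0.285 CPM in the control and 3.05, 1.77 and 5.90 CPM in the model libraries. The groups do not overlap, and model 3, the library with pancreatic markers, was the highest and control 3 the lowest (log2 fold change 1.88, SE 0.69, unadjusted p = 0.0278, adjusted p = 0.851 by edgeR). With each library left out in turn, Adam2 ran from 1.32 without model 3 to 2.32 without control 1. Without both control 3 and model 3 it was 0.87. Adam7, an epididymal protein, had 0.355, 1.20 and 1.07 CPM in the control and 0.485, 0.136 and 0.114 CPM in the model libraries (log2 fold change -1.86, SE 0.80, unadjusted p = 0.0516). The sum of the 7 members was 2.95 to 7.95 CPM in any library.

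The ADAMTS proteases shared a direction but not a passed test. Of 19 tested, 18 had lower values in the model libraries, with a median log2 fold change of -0.44. The model libraries lay wholly below the control libraries for 4 of the 19, where 6.33% of all genes did so. Their summed level was 131, 80.5 and 153 CPM in the control and 61.1, 120 and 115 CPM in the model libraries, so control 2 lay below models 2 and 3. Model 1 was the lowest library for 14 of the 19 (73.7%), where it was the lowest for 30.8% of all genes, and control 3 was the highest for 13. The count of lower members was 18 under each other scaling, 14 without model 1 and 16 without control 3. With each library left out in turn, the median ran from -0.20 without model 1 and -0.33 without control 3 to -0.77 without control 2, with -0.69 without model 2 and -0.70 without model 3.

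**Figure D4:**
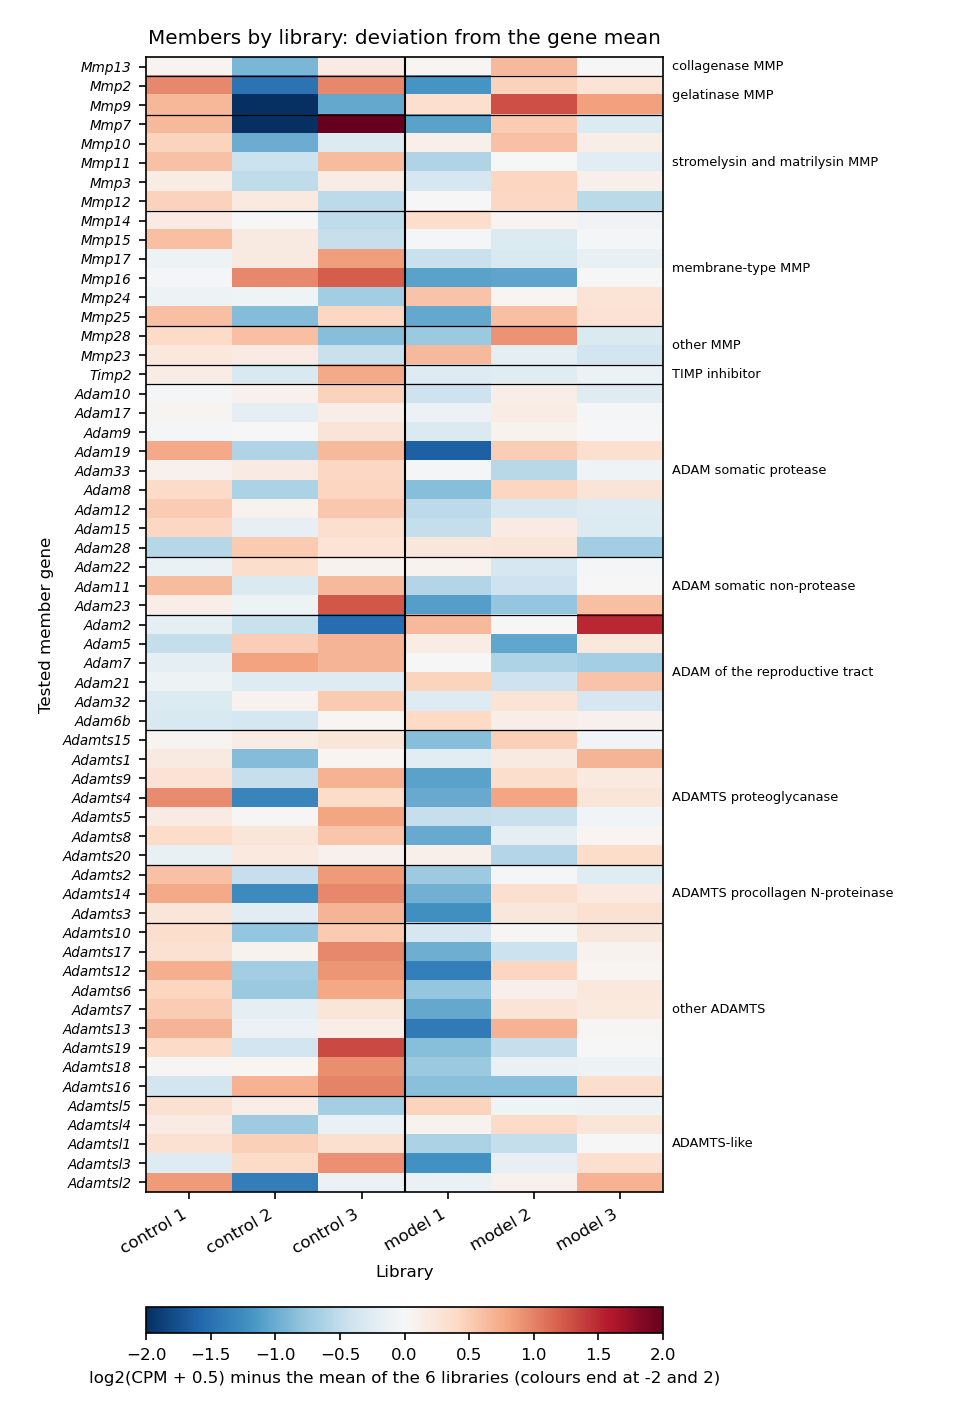
Deviation of log2(CPM + 0.5) from the mean of the 6 libraries (colour, blue below and red above) for the 59 tested members (rows, by role) in each library (columns). Model 1 is the lowest library for 14 of 19 ADAMTS proteases and control 3 the highest for 13, and control 2 is low in many of the same rows.

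The procollagen N-proteinases remove the amino-terminal propeptide of fibrillar collagens. Adamts2, the most abundant of the 3, had 11.1, 5.13 and 13.5 CPM in the control and 4.19, 7.14 and 6.07 CPM in the model libraries (log2 fold change -0.78, SE 0.40, unadjusted p = 0.0947). Control 2 lay within the range of the model libraries. For Adamts14 it was -0.55 and for Adamts3 -0.44. Among the proteoglycanases, which cut versican and aggrecan, Adamts15 was the most abundant, with 28.5, 30.3 and 32.3 CPM in the control and 14.9, 38.1 and 26.3 CPM in the model libraries (log2 fold change -0.20, SE 0.33). Adamts5 had 3.78, 3.42 and 6.13 CPM in the control and 2.28, 2.31 and 3.19 CPM in the model libraries, with no overlap (log2 fold change -0.77, SE 0.35, unadjusted p = 0.0636). Adamts8 also had groups without overlap at a low level, 1.36 to 1.80 against 0.277 to 1.11 CPM (log2 fold change -1.03, SE 0.56). Adamts1, at 0.42 (SE 0.37), was the 1 ADAMTS protease with higher values in the model libraries.

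The other 9 ADAMTS proteases all had lower values, with a median log2 fold change of -0.65. Adamts10, which binds fibrillin, was the most abundant, with 30.4, 13.7 and 34.5 CPM in the control and 18.8, 24.1 and 27.8 CPM in the model libraries (log2 fold change -0.15, SE 0.35). Adamts17, another fibrillin-linked protease, had 5.15, 4.30 and 8.38 CPM in the control and 1.83, 2.88 and 4.30 CPM in the model libraries (log2 fold change -0.98, SE 0.42, unadjusted p = 0.0509). Control 2 and model 3 are equal to 3 digits here, and the groups of Adamts17 overlapped under RLE scaling. Adamts19 stood at 0.909 to 4.13 CPM in the control and 0.519 to 1.34 CPM in the model libraries (log2 fold change -1.36, SE 0.64, unadjusted p = 0.0693). Adamts16 had the largest log2 fold change of this group, -1.91, with an SE of 1.47 and 2 model libraries at 0 counts. Without control 3 the values moved toward 0, to -0.47 for Adamts2, -0.46 for Adamts5 and -0.64 for both Adamts17 and Adamts19, and Adamts8 stood at -0.65 without model 1.

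Fibroblast markers were low in the libraries in which the ADAMTS proteases were low. The 8 marker genes, collagens and Pdgfra among them, summed to 1190, 399 and 1366 CPM in the control and 364, 961 and 571 CPM in the model libraries, and 7 of 8 had lower values in the model libraries, 0 at an unadjusted p under 0.05. The same libraries, control 2 and model 1, were lowest in both sums. Without both of them, 17 of 19 ADAMTS proteases had lower values, with a median log2 fold change of -0.51. That fit does not even out the marker sum. The libraries left had marker sums of 1190 and 1366 CPM in the control and 961 and 571 CPM in the model group. Col1a1, Col1a2 and Col3a1 make up most of each sum, which cannot separate collagen expression from fibroblast content. Over all 6 libraries their log2 fold changes were -0.74, -0.72 and -0.78, and those of Dcn, Lum and Dpt -0.65, -1.17 and -1.24. Pdgfra stood at -0.06 (SE 0.46) and Pdgfrb at 0.21 (SE 0.33). Pdgfrb had 45.3 and 38.6 CPM in the control and 44.8 and 41.8 CPM in the model libraries left. The part of fibroblast content in the result was not tested.

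**Figure D5:**
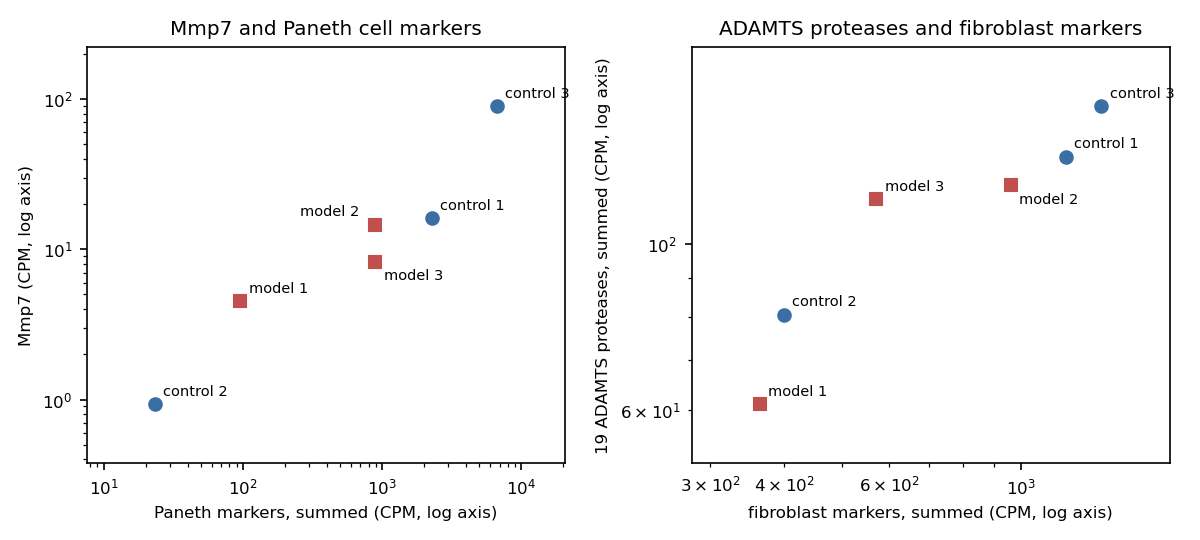
Left, Mmp7 (vertical log axis, CPM) against the summed Paneth markers (horizontal log axis, CPM); right, the sum of the 19 ADAMTS proteases against the summed fibroblast markers, with 1 point per library. Control 3 is at the upper right of both panels, control 2 is at the lower left for Mmp7, and control 2 and model 1 are at the lower left for the ADAMTS proteases.

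The ADAMTS-like proteins lack the protease domain and bind fibrillin and other matrix proteins. Adamtsl5 was the most abundant, with 81.0, 72.0 and 40.8 CPM in the control and 89.4, 61.6 and 61.2 CPM in the model libraries (log2 fold change 0.13, SE 0.30). Adamtsl1 had 6.95, 7.96 and 7.10 CPM in the control and 3.39, 3.86 and 5.58 CPM in the model libraries. Its groups do not overlap, and the log2 fold change was -0.78 (SE 0.29, unadjusted p = 0.0295, adjusted p = 0.851 by edgeR), between -1.01 and -0.64 with each library left out in turn. Of the 5 tested, 3 had higher and 2 lower values.

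Matrix proteins that these enzymes cut had values in the same direction as the ADAMTS proteases. All 17 tested had a log2 fold change below 0, where 51.8% of all genes did, with a median of -0.51. The model libraries lay wholly below the control libraries for 1 of the 17, where 6.33% of all genes did so. By edgeR, 0 passed the adjusted threshold and 2 stood at an unadjusted p under 0.05, where 4.81% of all genes stood there. The count of lower genes was 14 without model 1 and 15 without control 3, model 2 or model 3. The median was -0.33 without control 3, -0.79 without control 2 and -0.87 without model 2. Those at an unadjusted p under 0.05 were Fbn2, a fibrillin (log2 fold change -1.05, SE 0.39), and Tnc, an adhesion-modulating matrix protein (-0.98, SE 0.42). The most abundant were Col3a1, with 407, 124 and 421 CPM in the control and 106, 302 and 148 CPM in the model libraries, and Col1a1. Both are also fibroblast markers, as is Col1a2, so the 2 lists are not independent. Of 20 tested regulators of these proteases, 14 had higher and 6 lower values, with 0 at an unadjusted p under 0.05 and a median of 0.09. The most abundant were Bsg, an inducer of MMP production (log2 fold change 0.38, SE 0.40), and Lrp1, a receptor that clears MMPs (-0.23, SE 0.29).

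Among 21 tested substrates that Adam10 and Adam17 release from the cell surface, 6 had higher and 15 lower values, with a median of -0.19. By edgeR, 4.81% of all genes and 1 of these substrates stood at an unadjusted p under 0.05. That gene was Areg, an epidermal growth factor receptor ligand, with 7.18, 12.3 and 3.06 CPM in the control and 13.3, 21.6 and 26.1 CPM in the model libraries, groups that do not overlap (log2 fold change 1.44, SE 0.50, unadjusted p = 0.0234, adjusted p = 0.851 by edgeR). The most abundant substrates were Cdh1, the gene of E-cadherin (log2 fold change -0.17, SE 0.23), and App, the amyloid precursor (-0.26, SE 0.22). Groups did not overlap for 4 of the 21 substrates, 2 wholly above, Areg among them, and 2 wholly below, Cdh1 and App. Of all genes, 4.73% lay wholly above and 6.33% wholly below. Of 10 other secreted or membrane metalloproteases, 4 had higher and 6 lower values, with a median of -0.08. Mep1a, a meprin of the brush border, stood at an unadjusted p of 0.0481 with 47.9, 24.8 and 842 CPM in the control and 41.2, 20.8 and 37.3 CPM in the model libraries, so that its log2 fold change of -3.20 (SE 1.32) lies in control 3. The most abundant were Mme, the neutral endopeptidase neprilysin, with a log2 fold change of 0.59 (SE 0.58), and Mep1b, the other meprin subunit, with -0.06 (SE 0.30).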

How the data were processed

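Poly-A selected RNA of frozen small intestine was sequenced in 6 libraries, per the labels' protocols. The file deposited by the authors holds raw read counts, whole numbers per gene symbol and library. FastQC, Trimmomatic, STAR, featureCounts and build GRCm39 are named, with no versions, per the submitters' processing notes. The annotation and the strand and multi-mapping settings were not given in the sources used here, so overlapping genes and genes with near-identical copies are uncertain. All 6 columns were matched to samples by library name, and 0 were left over.

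Counts were tested with edgeR 4.0.16 in R 4.3.3 (filterByExpr, TMM scaling, robust quasi-likelihood F test), control against model without a block, with Benjamini-Hochberg adjustment over 15904 genes at 0.05. In simulated data of this size edgeR recovered 63% of genes changed by a log2 fold change of 2 and 86% of those changed by 3. It made 15 false calls. Counts were drawn independently for each gene, without shared differences in cell content among libraries, and smaller changes were not simulated. These shares therefore do not give the recovery in the real libraries. The biological coefficient of variation was 40.7%. Alternatives were DESeq2 1.42.0, limma-voom (limma 3.58.1), other scalings and filters, a replicate block and leaving out each library. Fits without control 2 and model 1, and without control 3 and model 3, were added after seeing the data. Exon lengths and gene overlap came from GENCODE M21 (GRCm38), matched by symbol for 83 of 84 genes, and promoters from RefSeq.

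Members and lists were chosen with earlier results of these data known. Named members are any called by the test, the 10 with the smallest p, the most abundant and the most changed of each role group, and Timp1 to Timp4, Mmp2, Mmp7, Mmp9, Adam10 and Adam17. Others named were chosen after their values were seen, such as those with groups that do not overlap. Of the other lists, the 2 most abundant genes and those at an unadjusted p under 0.05 are named.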

Additional observations from a re-analysis of the deposited data

How the results depend on the processing

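The members' median log2 fold change stayed below 0 in each of the 17 other fits, from -0.62 to -0.16, and edgeR and limma-voom called 0 members and 0 genes in each of their fits. DESeq2 called 28 genes, none a member. The number of members at an unadjusted p under 0.05 was 4 in the reported fit, 9 with scaling by library size alone, 8 with DESeq2, 1 with at least 5 CPM in 3 libraries, and from 1 to 10 with each library left out in turn (10 without control 2, 1 without control 3, 2 without model 1, 1 without model 2). The share of all genes at an unadjusted p under 0.05 was 4.81% in the reported edgeR fit and was not counted in the other fits. With the 5 CPM filter 27 members were tested and 19 were lower. Directions turned for genes near 0: Adam17 to 0.03 with RLE scaling and with DESeq2, Adamtsl5 to -0.07 and Mmp23 to -0.13 with library size alone. Without both control 2 and model 1, Adamts15 stood at 0.08, Mmp28 at 0.56 and Mmp23 at -0.22, and without both control 3 and model 3, Adamtsl5 at -0.02, Mmp7 at 0.16 and Adam17 at 0.07. With each library left out in turn the ranges were -0.69 to 0.27 for Mmp28, -0.08 to 0.08 for Adam17, -0.45 to 0.11 for Adamts10, -0.10 to 0.33 for Adamtsl5, -0.31 to 0.30 for Mmp23, -2.51 to 0.11 for Mmp7 and -0.55 to 0.09 for Adamts15. Of the 59 tested members, 38 kept their sign in all 6 such fits, 28 lower and 10 higher. The cause was not tested. The labels do not say what the replicate numbers mark. Correlations of same-numbered control and model libraries, taken on deviations from the group mean, were -0.08, -0.30 and 0.33. Those of differently numbered libraries ran from -0.39 to 0.53. With 3 libraries per group, these values cannot show whether the numbers pair the libraries. With a replicate block 0 members were called, 3 stood at an unadjusted p under 0.05, 44 were lower and the median was -0.38. Depth limits the 14 members under 1 CPM, such as Adam7 and Adamts16, whose values rest on few counts.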
